A study of Mus musculus with 8 samples.

Results

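The genes described here are the MHC class II presentation genes of mouse knee cartilage: H2-Aa, H2-Ab1, H2-Eb1, Cd74, Ciita, H2-DMa and H2-DMb1. Members were taken by gene name, and all 7 had a row among the 20539 genes of the deposited expression table. The rule uses no measured value, but the set was proposed with earlier results of these data known. C57BL/6J mice of 4 to 5 months, of both sexes, had the anterior cruciate ligament of 1 knee transected (ACLT), and the other hind limb served as control. They were injected under the skin with a placebo antibody (PLA Ab) or with a human monoclonal antibody against GDF8, or myostatin (GDF8 Ab), at 10 mg/kg, and articular cartilage was taken on day 7 after ACLT. For the antibody treatments the paper names Col1-eGFP mice beside C57BL/6J mice. RNA from 2 pools of 4 limbs, named A and B, was sequenced in each of 4 groups, which are placebo control limbs, placebo ACLT limbs, control limbs under anti-GDF8 and ACLT limbs under anti-GDF8. All 4 groups received an antibody, so none shows untreated mice, and the control limbs came from mice that had been operated on. The number of mice behind the pools is given as 8 per group in one source and as 4 per treatment in another. The control samples carry the word quadricep in their treatment tag, whereas their titles, sources and tissue tags name cartilage.

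MHC class II molecules display peptides from endocytosed proteins to CD4+ T cells on the surface of B cells, dendritic cells and macrophages, and chondrocytes at rest are not known for high levels of them. An alpha and a beta chain pair in the endoplasmic reticulum with the invariant chain, which fills the peptide groove and leads the complex to endosomes, where lysosomal proteases degrade it and the H2-DM heterodimer exchanges its last fragment for an antigenic peptide. Transcription of class II chain genes, of Cd74 and of the H2-DM genes depends largely on the coactivator CIITA, the product of Ciita, which docks on RFX and NF-Y factors bound to X and Y boxes and is induced in many cells by interferon gamma. H2-Aa and H2-Ab1 encode the chains of I-A, and H2-Eb1 encodes the beta chain of I-E, whose alpha chain gene is inactive in C57BL/6 mice, so these mice display no I-E at the cell surface.

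RefSeq promoter windows of 300 bases (250 before and 50 after a start, build GRCm38.p6) were at hand for 4 of the 7 genes, namely H2-Aa, H2-Eb1, H2-DMa and H2-DMb1. The stretch of 120 bases before the start is shown for each, because X and Y boxes of class II genes are known from this region. H2-Aa and H2-Eb1 varied together between pools, H2-DMb1 varied less and H2-DMa hardly varied. Whether the motifs bear on this spread was not tested. Capitals mark 3 motifs searched on both strands: TGATTGG, the core of the Y box, and GCAAC and TGATG, parts of the X box region.
H2-Aa, chr17:34287824-34287943, minus strand: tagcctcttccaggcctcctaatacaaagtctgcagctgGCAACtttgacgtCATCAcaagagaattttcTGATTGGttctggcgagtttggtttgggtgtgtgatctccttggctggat
H2-Eb1, chr17:34305747-34305866, plus strand: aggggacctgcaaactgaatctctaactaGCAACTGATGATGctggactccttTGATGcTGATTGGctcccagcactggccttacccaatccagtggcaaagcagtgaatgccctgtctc
H2-DMb1, chr17:34153071-34153190, plus strand: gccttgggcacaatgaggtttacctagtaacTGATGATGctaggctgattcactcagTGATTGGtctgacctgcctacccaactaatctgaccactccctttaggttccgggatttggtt
H2-DMa (the first of 2 listed starts), chr17:34122712-34122831, plus strand: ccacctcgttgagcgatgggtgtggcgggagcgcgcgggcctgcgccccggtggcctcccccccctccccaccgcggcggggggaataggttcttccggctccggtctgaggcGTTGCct
TGATTGG began 50 bases before the start of H2-Aa, 61 bases before that of H2-Eb1 and 63 bases before that of H2-DMb1, in each case on the strand of the gene, and was in neither window of H2-DMa. In the coordinates of the table, H2-DMa (34338515 to 34358075) overlaps its neighbour Brd2 (34330997 to 34341608, minus strand). Which start of H2-DMa is used in cartilage was not tested, so the lack of TGATTGG holds for these 2 windows only. Over all 32851 windows of this length, 7.82% held TGATTGG on either strand, 35.2% held GCAAC and 39.3% held TGATG, so the shorter motifs are common. In H2-Eb1 the letters of GCAAC and TGATG run on without a gap, with a further TGATG that overlaps the first. A match of letters is a description of the window and no evidence of binding.

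The libraries held 16.4 to 28.1 M (1e+06) reads each, read from the step between low values, and the unit is CPM, counts per 1e+06 reads, so a gene at 4.98 CPM had 100 reads at the median depth. The members had between 214 reads (Ciita, anti-GDF8 ACLT pool B) and 34380 reads (Cd74, placebo ACLT pool B) in a library, so counting error is small for all but the narrowest differences between pools. Markers of other tissues were present. Cartilage and chondrocyte markers took 0.352% to 0.845% of reads, erythroid markers 7.08% to 13.5%, neutrophil markers 2.34% to 3.89%, and skeletal muscle markers 0.0332% to 8.19%, with placebo control pool B at 81943 CPM of muscle markers and anti-GDF8 ACLT pool B at 37371 CPM against 2467 CPM in its pool A. In bulk tissue, fewer cells of a type and less RNA per cell cannot be told apart.

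Divided by exonic length, the members stood in the same order in all 8 libraries. Cd74, the invariant chain, was at 558 CPM per kb on average, followed by H2-Ab1 at 125, H2-Eb1 at 59.5, H2-Aa at 43.9, H2-DMb1 at 26.7, H2-DMa at 16.4 and Ciita at 1.92 CPM per kb. Cd74 exceeded H2-Ab1 by 3.95- to 4.87-fold within a library on this scale, and the ranges of both genes over the libraries did not overlap. The next neighbours, H2-Ab1 with H2-Eb1, H2-Eb1 with H2-Aa, and H2-Aa with H2-DMb1, overlapped in range over the libraries although the order held within each, with steps of 1.95- to 2.45-fold, 1.23- to 1.62-fold and 1.13- to 2.34-fold. Ciita, the regulator, was 7.07- to 14.0-fold below H2-DMa.

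**Figure D1:**
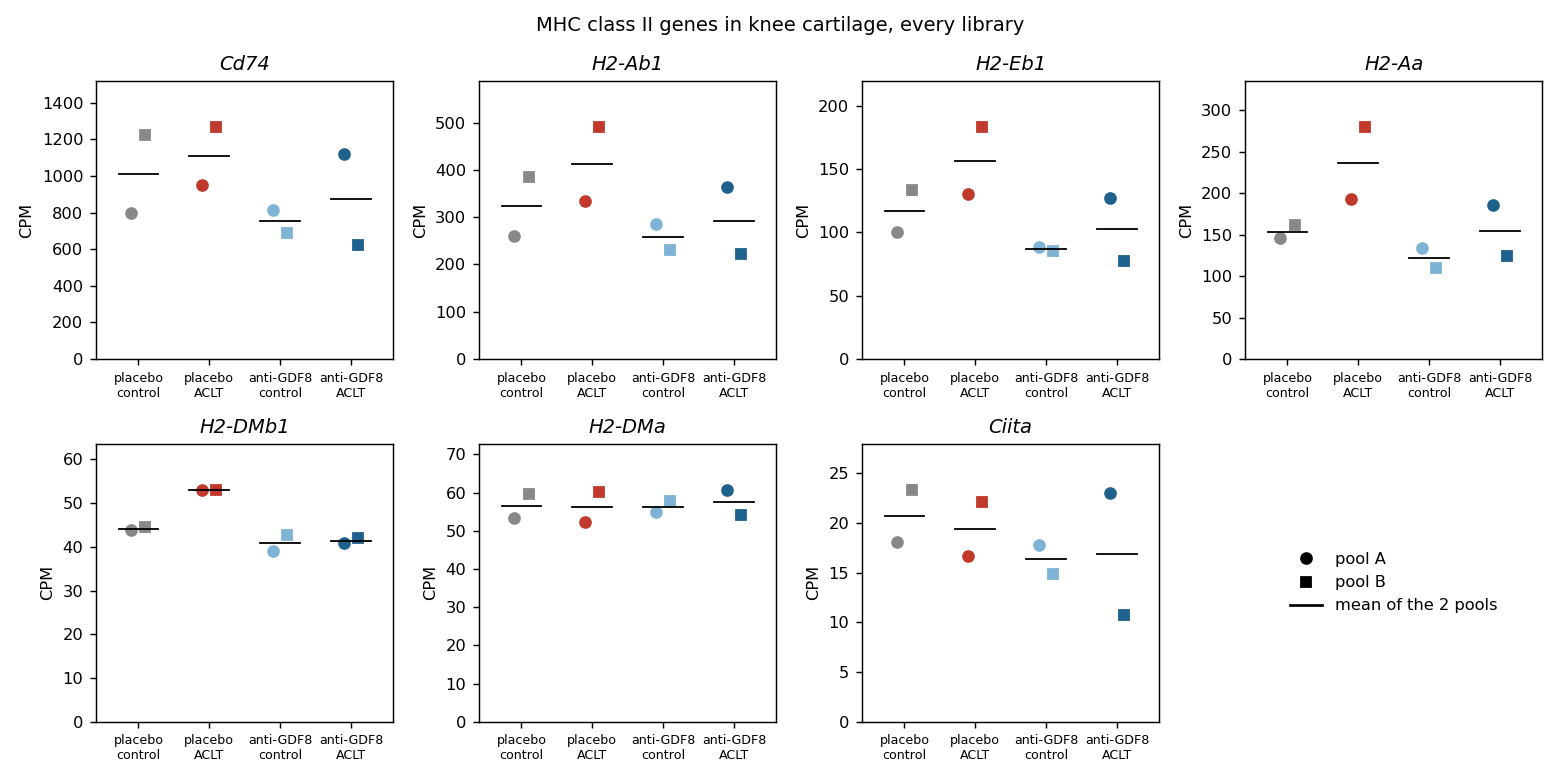
CPM of the 7 MHC class II genes (vertical axis, starting at 0) in the 2 pools of each of the 4 groups, with a bar at the mean of the pools and genes ordered by their level per kb. Cd74, H2-Ab1, H2-Eb1, H2-Aa and Ciita differ by 1.504- to 2.14-fold between the pools of anti-GDF8 ACLT and each by less in the other groups, H2-DMa stays between 52.3 and 60.7 CPM in all 8 libraries, and H2-DMb1 reaches 52.9 and 53.0 CPM in placebo ACLT.

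Among the classical chains, H2-Ab1, the I-A beta chain (chromosome 17, 34476663 to 34488393 in the coordinates of the table), was, under placebo and in the order of pools A and B as throughout, at 261 and 384 CPM in control and 335 and 490 in ACLT limbs and, under anti-GDF8, at 285 and 230 in control and 363 and 223 CPM in ACLT limbs. Every group overlapped every other except that both anti-GDF8 control pools lay under both placebo ACLT pools. H2-Aa, its alpha partner (34501718 to 34506797), was, under placebo, at 146 and 161 CPM in control and 193 and 280 in ACLT limbs and, under anti-GDF8, at 134 and 109 in control and 186 and 124 CPM in ACLT limbs. For H2-Aa both placebo ACLT pools stood above the other 6 libraries, and both anti-GDF8 control pools stood under all placebo libraries. H2-Eb1, the I-E beta chain (34524841 to 34535648), was, under placebo, at 100.1 and 133 CPM in control and 130 and 183 in ACLT limbs and, under anti-GDF8, at 88.2 and 85.5 in control and 127 and 77.7 CPM in ACLT limbs. Placebo ACLT pool B was the highest library for all 3 chains, and H2-Eb1 was under all 4 placebo libraries in 3 of the 4 anti-GDF8 libraries.

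Cd74, which encodes the invariant chain (chromosome 18, 60936920 to 60945724), was, under placebo, at 797 and 1224 CPM in control and 954 and 1266 in ACLT limbs and, under anti-GDF8, at 814 and 690 in control and 1123 and 625 CPM in ACLT limbs. The highest and the lowest library were placebo ACLT pool B and anti-GDF8 ACLT pool B, 2.03-fold apart. Ciita, the coactivator (chromosome 16, 10297923 to 10346282), was, under placebo, at 18.0 and 23.3 CPM in control and 16.7 and 22.1 in ACLT limbs and, under anti-GDF8, at 17.8 and 14.8 in control and 22.97 and 10.7 CPM in ACLT limbs. Both pools of anti-GDF8 control were under both of placebo control for Ciita, and its other groups overlapped.

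The editors were steadier. H2-DMa, the alpha chain of the peptide exchanger (chromosome 17, 34338515 to 34358075), was, under placebo, at 53.4 and 59.6 CPM in control and 52.3 and 60.2 in ACLT limbs and, under anti-GDF8, at 54.9 and 57.7 in control and 60.7 and 54.2 CPM in ACLT limbs, a range of 1.16-fold. H2-DMb1, a beta chain of the same heterodimer (34372046 to 34379204), was, under placebo, at 43.8 and 44.5 CPM in control and 52.9 and 53.0 in ACLT limbs and, under anti-GDF8, at 39.1 and 42.7 in control and 40.9 and 41.9 CPM in ACLT limbs. Its placebo ACLT pools were above the other 6 libraries. H2-DMb1 has a close paralog next to it, H2-DMb2, and how reads were shared between the copies is not given in the sources used here, so the values of both are uncertain.

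To ask whether ligament injury altered class II expression, ACLT limbs were compared with control limbs under each antibody, with limma across 17401 genes and Benjamini-Hochberg adjustment over all of them. Under placebo, 0 of the 7 members passed an adjusted p of 0.05, whereas 15.6% of all genes tested did. At an unadjusted p of 0.05 1 of 7 members passed beside 5456 of the 17401 genes, and limma with voom weights called 0 as well. The median log2 fold change of the members was 0.26 beside 0.17 over all genes, with 5 members above 0 and 2 below. The pools of both limbs lay apart for H2-Aa and H2-DMb1. With 2 pools a group this often arises without a difference as well, and its share over all genes was not computed. H2-Aa had a log2 fold change of 0.60 (SE 0.24, limma adjusted p = 0.127) and H2-DMb1 one of 0.26 (SE 0.14, adjusted p = 0.225). H2-Eb1 was at 0.42, H2-Ab1 at 0.36, Cd74 at 0.15 (-0.0233 with trimmed-mean scaling), H2-DMa at -0.01 and Ciita at -0.10 on the log2 scale. The 95% interval of Cd74 ran from -0.56 to 0.87 and that of Ciita from -0.87 to 0.68, with both signs inside it, whereas that of H2-DMa ran from -0.34 to 0.33.

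Under anti-GDF8, 0 of 7 members passed between ACLT and control limbs, and 0.609% of all genes did. Under an unadjusted p of 0.05 were 0 of 7 members and 1759 of all genes, voom weights called 0, and the pools overlapped for all 7. Log2 fold changes were 0.32 for H2-Aa (SE 0.24, adjusted p = 0.731), 0.20 for H2-Eb1, 0.16 for Cd74, 0.15 for H2-Ab1, 0.03 for H2-DMa, 0.02 for H2-DMb1 and -0.05 for Ciita, with a median of 0.15 beside -0.04 over all genes. The difference between the injury effects under both antibodies was tested as an interaction, which called 0 of 7 members and 0% of all genes, with log2 values from -0.27 for H2-Aa to 0.05 for Ciita and adjusted p of 0.652 or more. At an unadjusted p of 0.05 the interaction had 0 members and 1799 of all genes, and voom called 0 of both.

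Averaged over both antibodies, ACLT against control called 0 of 7 members and 14.7% of all genes. H2-Aa had the highest log2 fold change of the members, 0.46 (SE 0.17, adjusted p = 0.105), and was the 1 of 7 members under an unadjusted p of 0.05, beside 5209 of the 17401 genes. Leaving out anti-GDF8 ACLT pool B brought H2-Aa to 0.61 with a limma adjusted p of 0.0293. Blocking by pool letter within each treatment gave H2-Aa an adjusted p of 0.0332 in this comparison and of 0.0417 under placebo, while over all 22 and 23 alternatives its adjusted p ran from 0.0293 to 0.280 and from 0.0417 to 0.480. The letters are not known to mark the same mice.

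**Figure D2:**
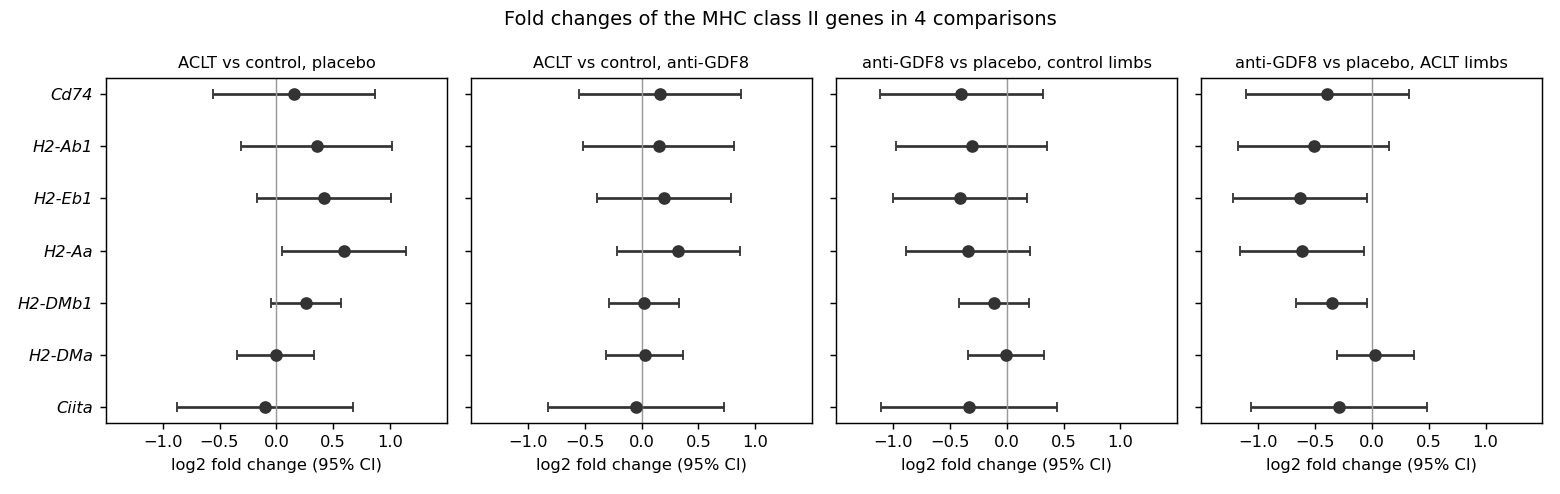
Log2 fold changes (horizontal axis) of the 7 MHC class II genes in 4 comparisons, as points with the 95% interval of the limma fit, not adjusted for the number of genes. Intervals clear of 0 are those of H2-Aa after ACLT under placebo and of H2-Eb1, H2-Aa and H2-DMb1 between antibodies in ACLT limbs, and none of these passed the adjustment.

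To ask whether GDF8 blockade altered the set, anti-GDF8 was compared with placebo in each limb. In ACLT limbs 0 of 7 members and 0% of all genes passed, with 3 members and 3010 of all genes under an unadjusted p of 0.05 and 0 calls by voom. Of the 7 values 6 were negative and the median was -0.39 beside -0.11 over all genes. Log2 fold changes were -0.64 for H2-Eb1 (SE 0.26, adjusted p = 0.260), -0.61 for H2-Aa (SE 0.24, adjusted p = 0.241), -0.51 for H2-Ab1, -0.39 for Cd74, -0.35 for H2-DMb1 (SE 0.14, adjusted p = 0.237), -0.29 for Ciita and 0.03 for H2-DMa. Pools lay apart for H2-Aa, H2-Eb1 and H2-DMb1, which were lower in both anti-GDF8 pools. The share of all genes with pools apart was not computed here either. Without anti-GDF8 ACLT pool B, Cd74 stood at 0.03 and Ciita at 0.26, so the sign of both rested on that library. In the same comparison 11 of 12 B cell markers (median -0.86), 7 of 7 B cell precursor markers (median -2.26) and 11 of 12 macrophage markers (median -0.53) had values below 0, and 0 of each list passed. So did 10 of 10 fibroblast (median -1.05), 14 of 14 cartilage (median -1.03) and 6 of 6 endothelial markers (median -0.53). Above 0 were 18 of 18 skeletal muscle (median 4.02), 8 of 8 erythroid (median 0.60) and 10 of 12 neutrophil markers (median 0.32). In these lists too, 0 passed.

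In control limbs 0 of 7 members and 0% of all genes passed, with 0 members and 791 of all genes under an unadjusted p of 0.05 and 0 calls by voom. All 7 values were below 0, with a median of -0.33 beside 0.09 over all genes and a range from -0.41 for H2-Eb1 to -0.004 for H2-DMa. Pools lay apart for Ciita, H2-Aa, H2-Eb1 and H2-DMb1, again without a computed share over all genes. Values below 0 were also found for 10 of 12 B cell markers (median -0.64) and 7 of 7 B cell precursor markers (median -2.84), and for 5 of 12 macrophage markers (median 0.05), with 0 of each list past the threshold. Fibroblast markers had 7 of 10 values below 0 (median -0.62), skeletal muscle markers 15 of 18 (median -1.19) and cartilage markers 8 of 14 (median -0.09). By contrast, 12 of 12 neutrophil (median 0.30), 8 of 8 erythroid (median 0.29) and 4 of 6 endothelial markers (median 0.03) were above 0. None of these lists had a gene past the threshold. Averaged over both limbs, 0 of 7 members and 0.00575% of all genes (1 gene) passed, with log2 values of -0.52 for H2-Eb1, -0.48 for H2-Aa, -0.41 for H2-Ab1, -0.39 for Cd74, -0.31 for Ciita, -0.23 for H2-DMb1 and 0.01 for H2-DMa. Among these, 3 of 7 had an unadjusted p under 0.05, beside 2190 of the 17401 genes, and the smallest adjusted p was 0.317, for H2-Eb1. H2-DMb1 was the member for which all 4 anti-GDF8 libraries, at 39.1 to 42.7 CPM, lay under all 4 placebo libraries, at 43.8 to 53.0 CPM. Its limma adjusted p was 0.367, and the share of all genes that separate in this way was not computed. The 1 gene called was Vpreb1, a surrogate light chain of B cell precursors, which fell by 2.87 on the log2 scale (limma adjusted p = 0.0213) and which voom did not call. Under placebo Vpreb1 was at 7.85 and 4.95 CPM in control and 13.3 and 10.7 in ACLT limbs, and under anti-GDF8 at 0.851 and 0.959 in control and 1.45 and 1.41 CPM in ACLT limbs, so the antibodies did not overlap. The 7 B cell precursor markers, of which 1 was at 0 in a library, summed to 31.5 to 62.5 CPM over the placebo libraries and to 11.5 to 20.1 CPM over the anti-GDF8 libraries, and their part in the class II values was not tested. The comparisons share libraries with each other, so their values are not independent of one another.

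The spread between pools differed by gene and group. In anti-GDF8 ACLT, the group with the widest spread for H2-Aa, H2-Ab1, H2-Eb1, Cd74 and Ciita, pools A and B differed by 2.14-fold for Ciita, 1.80-fold for Cd74, 1.64-fold for H2-Eb1, 1.63-fold for H2-Ab1 and 1.504-fold for H2-Aa, beside a median of 1.15-fold over the 12063 genes with at least 100 reads. Of those genes, 4.32% were as far apart as Ciita and 6.499% as far as Cd74. H2-DMb1 differed by 1.03-fold and H2-DMa by 1.12-fold in the same pools. In anti-GDF8 control H2-Eb1 differed by 1.03-fold, beside a median of 1.12-fold, and in placebo control H2-Aa differed by 1.10-fold and Cd74 by 1.54-fold, beside a median of 1.23-fold. Pool B was the higher one in both placebo groups and pool A in both anti-GDF8 groups for H2-Aa, H2-Ab1, H2-Eb1, Cd74 and Ciita.

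Within a library some pairs of genes kept closer ratios than their levels, and others did not. H2-Ab1 was 0.314 to 0.387 of Cd74 in CPM, a range of 1.23-fold, although Cd74 itself ranged 2.03-fold and H2-Ab1 2.20-fold. Ciita was 0.0172 to 0.0226 of Cd74, a range of 1.32-fold beside 2.17-fold for Ciita alone. H2-Ab1 and H2-Eb1 ranged 1.26-fold against each other. H2-DMa and H2-DMb1 ranged 1.501-fold against each other, wider than the 1.16- and 1.35-fold of each alone, and Ciita and H2-DMb1 ranged 2.19-fold. The SD of the log2 ratio of H2-Aa to H2-DMa was 0.41, near the 0.43 of H2-Aa itself, and H2-DMa was nearly constant. These ratios describe 8 libraries that share their tissue and normalization.

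Of 6 further genes listed as completing the class II set, 4 had a row and were tested, and 0 were called in the 4 comparisons of 2 groups. Beside this, 15.6% of all genes were called after ACLT under placebo and 0.609% under anti-GDF8. Between antibodies 0% of all genes were called in either limb, so 0 calls there say nothing particular about these genes. H2-DMb2, the second DM beta chain, was at 21.02 to 40.0 CPM, H2-Ob, the beta chain of the H2-O heterodimer that restrains H2-DM, at 11.2 to 35.3 CPM, H2-Oa, its alpha chain, at 3.97 to 8.55 CPM, and H2-Eb2, a further beta chain gene, at 0.402 to 2.35 CPM. H2-DMb2 was at 38.7 and 21.02 CPM in anti-GDF8 ACLT pools A and B and H2-Ob at 31.0 and 11.2 CPM, so they were split between those pools as Cd74 was, unlike H2-DMb1. After ACLT under placebo the 4 genes had log2 fold changes of -0.03 for H2-DMb2, -0.12 for H2-Ob, 0.46 for H2-Oa and 0.79 for H2-Eb2, with adjusted p of 0.424 or more.

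The transcription factors and the interferon gamma route that act on the set showed no call under placebo either, with 0 of 17 genes tested and a median log2 fold change of -0.03 beside 0.17 over all genes. Jak1, the kinase below the interferon gamma receptor, was at 240 to 335 CPM with a log2 fold change of -0.19, and Ifngr1, the ligand-binding receptor chain, at 164 to 251 CPM with 0.20. In contrast, 4 of 6 genes for class II peptide processing and turnover rose after ACLT under placebo, beside 15.6% of all genes, with a median of 1.08. Ctsl, a lysosomal cathepsin, was at 166 and 102 CPM in placebo control against 437 and 454 CPM in placebo ACLT, and rose by 1.78 on the log2 scale (SE 0.21, adjusted p = 0.00200). Ctss, the cathepsin that cleaves the invariant chain in B cells and dendritic cells, was at 214 and 140 against 475 and 521 CPM and rose by 1.52 (adjusted p = 0.00320). Lgmn, the asparagine endopeptidase legumain, was at 78.1 and 78.3 against 223 and 250.2 CPM and rose by 1.59 (adjusted p = 0.000950). Ifi30, a thiol reductase that unfolds antigens, rose by 0.65 (adjusted p = 0.0476), a call that 11 of 23 alternatives kept, while Ctsl, Ctss and Lgmn kept theirs in all 23.

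Under anti-GDF8, Lgmn was at 72.6 and 82.2 CPM in control limbs and at 149 and 132 CPM in ACLT limbs. It was the 1 of the 6 processing genes that rose with ACLT, by 0.86 (limma adjusted p = 0.0370), beside 0.609% of all genes called. That call was kept in 12 of 23 alternatives, and among single libraries it was lost without placebo ACLT pool A or B, without anti-GDF8 control pool A or B, and without anti-GDF8 ACLT pool A. Ctsl had 0.93 (adjusted p = 0.125) and Ctss 0.66 (adjusted p = 0.294).

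Of 7 costimulation genes tested, 1 rose under placebo, Cd83, which stabilizes class II and CD86 on the surface of dendritic cells, by 0.94 (adjusted p = 0.0215, kept in 19 of 23 alternatives). Of all genes, 15.6% were called in this comparison, 2011 of 17401 higher, so 1 call does not set this list or the class I list apart. Of 15 genes of MHC class I presentation, 1 rose, B2m, the light chain of class I, by 0.86 (adjusted p = 0.0276, kept in 17 of 23 alternatives). Both calls were lost without placebo control pool B and without either placebo ACLT pool, and that of B2m also without either anti-GDF8 control pool. Under anti-GDF8 neither list had a call, beside 0.609% of all genes called.

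**Figure D3:**
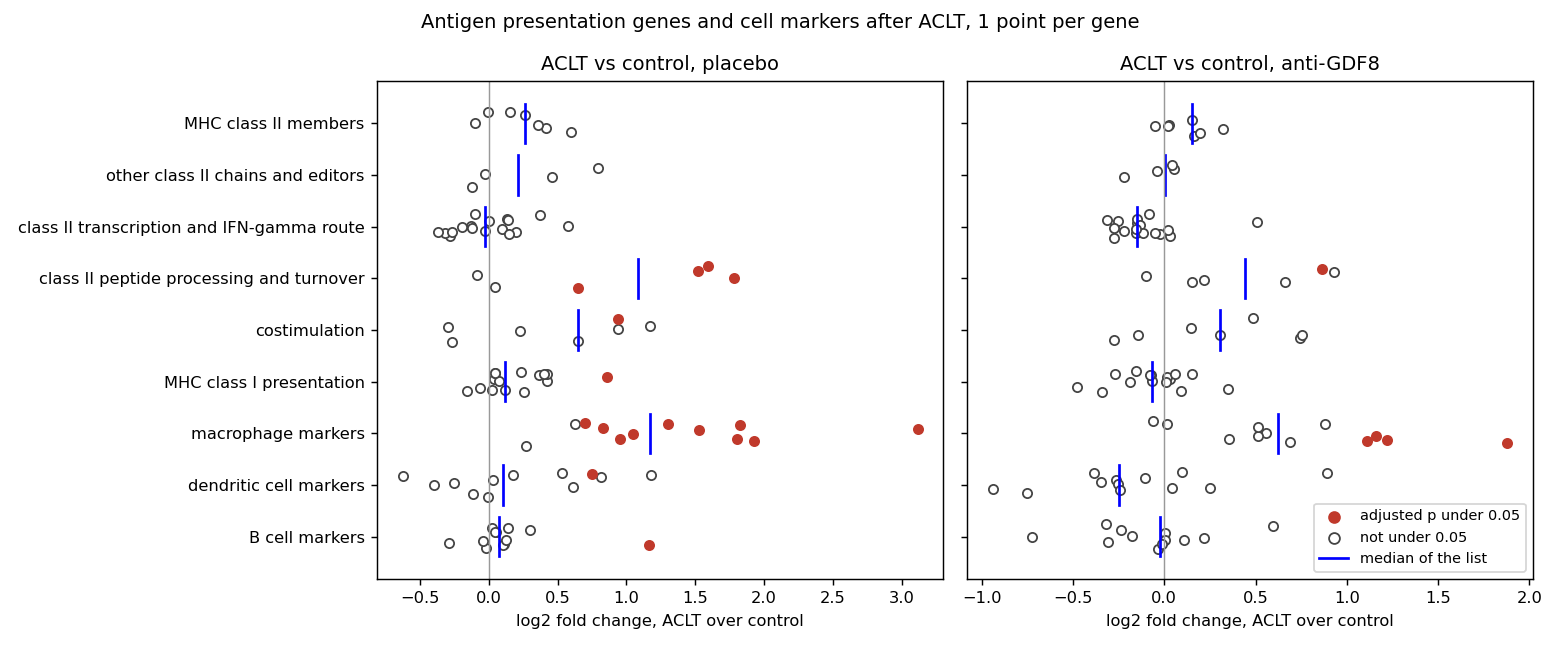
Log2 fold change of ACLT over control limbs (horizontal axis) for each gene of 9 lists, under placebo and under anti-GDF8, with filled points for an adjusted p under 0.05 and a line at the median of each list. The 7 MHC class II members have no filled point in either panel, while 4 genes for peptide processing and 10 macrophage markers are filled under placebo.

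The marker lists of cells that carry class II did not move alike, and lists of other cells moved in the same comparison. Of all genes, 15.6% were called after ACLT under placebo and 0.609% under anti-GDF8. Under placebo 7 of 10 fibroblast markers rose after ACLT (median 2.22) and 17 of 18 skeletal muscle markers fell (median -6.45). Under anti-GDF8 3 of 10 fibroblast markers rose (median 1.68) and 0 of 18 muscle markers passed (median -1.37). The part of either list in the values of the processing genes and of the class II genes was not tested. Macrophage markers, all 12 of 12 above 0 in every library, summed to 665 to 771 CPM in placebo control, 1527 to 1727 in placebo ACLT, 742 to 764 in anti-GDF8 control and 1118 to 1146 CPM in anti-GDF8 ACLT, and 10 of 12 rose after ACLT under placebo, with 5 of 12 left without placebo ACLT pool B and 6 without its pool A. C1qb, a complement C1q chain made by macrophages, rose by 1.93 (adjusted p = 0.000942) and Ms4a7 by 3.11 (adjusted p = 0.000670). Under anti-GDF8 4 of 12 rose, C1qa, C1qb, C1qc and Ms4a7, with 0 of 12 left without either placebo ACLT or either anti-GDF8 control pool and 1 without anti-GDF8 ACLT pool A. The 7 members together were, under placebo, at 1420 and 2030 CPM in control and 1734 and 2354 in ACLT limbs and, under anti-GDF8, at 1433 and 1230 in control and 1924 and 1156 CPM in ACLT limbs, so class II per macrophage marker CPM ran from 1.01 to 3.05 over the libraries, a range of 3.02-fold. Cd74 made up 56.4% and H2-Ab1 19.4% of the summed mean CPM of the members, so class II sums and ratios mostly follow these genes.

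B cell markers, again 12 of 12 above 0 in every library, summed to 538 to 628 CPM in placebo control, 621 to 707 in placebo ACLT, 423 to 499 in anti-GDF8 control and 326 to 571 CPM in anti-GDF8 ACLT. Of the 12, 1 rose after ACLT under placebo, Ebf1, an early B cell factor that mesenchymal cells also express, by 1.17 (adjusted p = 0.00952). With 15.6% of all genes called in this comparison, 1 call of 12 does not set this list or the dendritic cell list below apart. The ratio of summed class II to summed B cell markers ran from 2.26 to 3.77, a range of 1.67-fold. Against summed dendritic cell markers it ran from 7.98 to 14.6, a range of 1.83-fold. A narrower range than against macrophage markers was thus not particular to the B cell list. In anti-GDF8 ACLT the B cell markers were 1.75-fold higher in pool A than in pool B, beside 1.66-fold for the summed class II genes, whereas in placebo control class II was 1.43-fold higher in pool B and the B cell markers were 1.17-fold higher in pool A. Dendritic cell markers, 12 of 12 above 0, summed to 139 to 158 CPM in placebo control, 162 to 167 in placebo ACLT, 143 to 154 in anti-GDF8 control and 129 to 138 CPM in anti-GDF8 ACLT, and 1 rose under placebo, Bst2, which interferon also induces, by 0.75 (adjusted p = 0.0210). The part of any of these cells in the class II values was not tested.

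**Figure D4:**
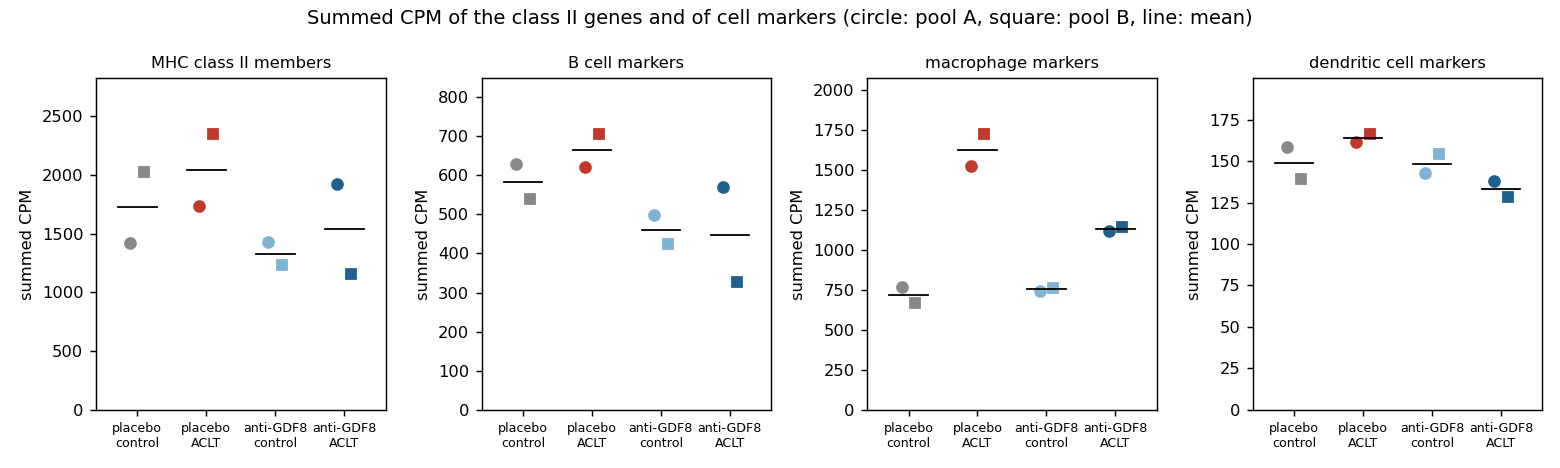
Summed CPM (vertical axes, starting at 0) of the 7 MHC class II genes, 12 B cell, 12 macrophage and 12 dendritic cell markers in each pool, with a line at the group mean. Macrophage markers separate both ACLT groups from both control groups, while class II and B cell markers spread widely between the pools of anti-GDF8 ACLT. Cd74 makes up 56.4% of the summed mean CPM of the class II genes.

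H2-DMa, H2-DMb1, H2-Ab1, H2-Aa and H2-Eb1 lie in a stretch of 249 kb of chromosome 17, from H2-Oa to H2-Eb2, that holds 15 genes of the table. Of these, 14 were tested and 0 were called under placebo, under anti-GDF8 or between antibodies in ACLT limbs. The shares of all genes called in these comparisons were 15.6%, 0.609% and 0%. The counts of 0 under anti-GDF8 and between antibodies therefore do not set the stretch apart. The stretch also holds genes of class I presentation and the bromodomain gene Brd2. Psmb8, an immunoproteasome subunit, was at 112 to 130 CPM and Tap2, a peptide transporter subunit, at 137 to 160 CPM, so both ranged less over the libraries than H2-Ab1, which lies between them and H2-Eb1 on the chromosome.

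The 8 genes outside the set whose profile over the libraries was nearest to the mean profile of the 7 members were searched among 12056 genes with at least 100 reads, by the root mean square difference of centred log2 values over 8 libraries. They were Gimap1, a GTPase of lymphocytes (0.07), Zbp1, a sensor of nucleic acids (0.11), Fam219a (0.11), Ifit3, an interferon-induced antiviral gene (0.12), Cd180, a Toll-like receptor relative on B cells (0.13), H2-Q6, a class I gene with close copies (0.14), Aldh18a1, an enzyme of proline synthesis (0.15), and Neil1, a DNA glycosylase (0.15). A gene with no variation would be at 0.27 by this measure, H2-Ab1 was at 0.11, Cd74 at 0.11 and H2-DMa at 0.24. Each member is part of the mean it is measured against, so its value cannot be set beside those of other genes. Gimap1 was, under placebo, at 24.6 and 31.4 CPM in control and 28.8 and 37.5 in ACLT limbs and, under anti-GDF8, at 26.2 and 24.1 in control and 28.4 and 20.4 CPM in ACLT limbs. Its highest and lowest libraries were those of Cd74, which a search for the nearest profile favours and which is no separate result.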

How the data were processed

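Cartilage RNA of 8 pools was sequenced, 2 for each of 4 groups, and groups follow the sample labels. STAR 2.7.3a, DESeq2, Partek, mm39 and mm10 appear in the submitters' processing notes with no role given. Values are CPM computed by the authors (every column adds up to 1e+06), and every gene of the table had at least 10 reads in some library. Starts equal GRCm38 for 2.23% of genes matched to GENCODE M21, so the coordinates of the table, given here 1-based, are of another build than the promoter windows. Exonic lengths are the exon unions of GENCODE M21.

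CPM was scaled to the median depth of 20.1 M reads (1e+06), 1 read was added before taking log2, and 17401 genes whose mean reached 10 reads were fitted as 4 group means (limma 3.58.1 in R 4.3.3, eBayes with trend, 4 residual and 4.74 prior degrees of freedom, checked on simulated data). Fold changes are on this scale, which understates those of low genes. Of values under 200 reads, 69.7% to 75.4% were whole to within 0.02, so no count model was used. No source used here ties pools with equal letters to the same mice, so pools were not paired, although both limbs of a treatment came from 1 set of mice. The p-values measure the spread between pools, which may be technical.

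The members and the lists of other genes were chosen with earlier results of these data known. All 7 members are named, with up to 4 called genes of each other list or the 2 with the highest mean. Python 3.11.15, pandas 2.3.3 and matplotlib 3.10.9 made the tables and figures.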

Additional observations from a re-analysis of the deposited data

How the results depend on the processing

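The alternatives were other pseudocounts (0.25 and 5 reads, 0.5 CPM) and filters (none, 50 reads), trimmed-mean and quantile scaling, CPM outside muscle, erythroid and neutrophil markers, fits without a trend, with robust estimates, with voom weights or on the 4 libraries compared, replicate blocks, and each library left out. Of 731 member values under alternatives, 696 kept their direction and their side of the threshold, 32 changed sign with no adjusted p under 0.05, and 3, all of H2-Aa, passed the threshold. These values cover all members after ACLT under each antibody, and between antibodies in ACLT limbs and over both limbs. They cover only H2-Eb1 and H2-DMa between antibodies in control limbs, H2-Aa and Ciita for the interaction, and H2-Aa for ACLT over both antibodies.

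The count of members called stayed at 0 except where H2-Aa passed, which made it 1 with the replicate block by pool letter within treatment (under placebo at 0.60 and over both antibodies at 0.46 on the log2 scale), and 0 to 1 with each library left out for ACLT over both antibodies, the 1 coming without anti-GDF8 ACLT pool B. The replicate blocks by letter over all groups and by title number gave 0 members. No source ties equal letters to the same mice, and the data leave it undecided: correlations of the pool deviations ran from 0.003 to 0.30, at 0.04 between placebo control and ACLT and 0.30 between anti-GDF8 control and ACLT, and in anti-GDF8 control the letters run against the title numbers.

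Trimmed-mean scaling moved the median of all genes from 0.17 to -0.01 under placebo, from -0.21 to -0.01 for the interaction and from 0.09 to -0.02 between antibodies in control limbs, and gave Cd74 -0.0233 under placebo, while voom gave Ciita 0.0135 under anti-GDF8. With each library left out, those of the member values covered that changed sign ranged as follows. The signs of other member values were not followed. After ACLT under placebo, Cd74 ranged from -0.16 to 0.46, Ciita from -0.30 to 0.11 and H2-DMa from -0.109 to 0.0935. After ACLT under anti-GDF8, Cd74 ranged from -0.26 to 0.58, Ciita from -0.60 to 0.50, H2-Ab1 from -0.20 to 0.50, H2-Eb1 from -0.16 to 0.55, H2-DMa from -0.0531 to 0.108 and H2-DMb1 from -0.0429 to 0.0816. Between antibodies in ACLT limbs, Cd74 ranged from -0.815 to 0.0316, Ciita from -0.83 to 0.26 and H2-DMa from -0.0697 to 0.133, in control limbs H2-DMa ranged from -0.0833 to 0.0756, and over both limbs H2-DMa ranged from -0.0368 to 0.0645. The interaction ranged from -0.57 to 0.0221 for H2-Aa and from -0.50 to 0.59 for Ciita. The cause was not tested.

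Counts over all genes moved more. Under placebo 2712 genes were called, 1675 without a trend and 678 to 3010 with a library left out. Under anti-GDF8 106 were called, with 2 to 179 under other settings and 1 to 368 with a library left out. Over both antibodies 2565 were called, 1503 without a trend and 1076 to 2867 with a library left out. Between antibodies 0 became 462 in ACLT limbs, and 0 became 305 for the interaction, without anti-GDF8 ACLT pool A, where 0 members were called, and over both limbs 1 became 0 to 235. The processing genes that rose numbered 3 to 4 under placebo and 0 to 2 under anti-GDF8, in alternatives added for that list, for the macrophage markers and for the named genes outside the set after the data were seen.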
